A study of Mus musculus with 4 samples.

Results

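The miRNAs described here are those that the array of sham-treated (Sham) Sertoli cells carried as detected, which were 193 of the 567 mouse miRNAs on the array (34.0%). They were taken by the detection flag that the scanner software wrote for each mouse miRNA, and were ranked by total signal, the software's sum over the probes of a miRNA in fluorescence units. The series holds 4 arrays, 1 of Sham, 2 of flutamide-acyline-treated mice and 1 of treated mice that also received testosterone, and only the Sham array was used. Its RNA came from Sertoli cells purified from adult mice and pooled from 5 to 7 animals by the labels, while a legend of the study gives 6. By the study's methods the animals were B6129 males that entered the experiment at 5 to 7 weeks of age, and the Sham group carried an implanted 0.2 cm Silastic tube and received saline injections, with no flutamide, acyline or testosterone. The pool was hybridized once, so that the group has 1 sample with no replicate, no test was run, and the number of arrays limits the precision. The error given after ± is the software's technical error of the total signal, and covers neither the spread between animals nor that between pools.

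MiRNAs are short single-stranded RNAs that are cut from a hairpin precursor, are loaded into an Argonaute protein and lower the output of mRNAs that pair with them, mainly through the seed, which is bases 2 to 8 counted from the 5′ end. Either arm of a hairpin can give a miRNA, called 5p or 3p, and in the older naming used on this array a star marks the arm thought to be the lesser one. Sertoli cells are the somatic cells of the seminiferous epithelium that surround and nourish the developing germ cells and carry the androgen receptor. Their defining markers are mRNAs and proteins (Sox9 among them), which a miRNA array does not measure. The label could therefore only be set against lists of miRNAs known for tissues and cell types.

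The let-7 family held the largest share of signal among the seed families with a matched sequence, and its mature sequences are shown to let the reader see how little separates its members. The seed is in capitals. Sequences are those of RefSeq (GRCm38.p6), matched to the array names as the processing section describes.
let-7c: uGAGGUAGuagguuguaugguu
let-7a: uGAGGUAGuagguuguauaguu
let-7b: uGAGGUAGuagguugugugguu
let-7f: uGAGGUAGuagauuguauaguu
let-7d: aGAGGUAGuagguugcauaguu
let-7g: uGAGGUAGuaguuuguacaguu
let-7i: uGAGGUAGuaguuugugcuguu
let-7e: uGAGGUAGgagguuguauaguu
Counted from 1 at the 5′ end and with the let-7c base first, let-7a differs from let-7c by G19A alone and let-7b by A17G alone. The difference of let-7f is G12A, G19A and that of let-7e is U9G, G19A. In let-7d the substitutions are U1A, U16C, G19A, in let-7g G12U, U18C, G19A, and in let-7i G12U, A17G, U18C, G19U. No substitution falls in the seed. The matched copies of let-7c (chr15:85706616-85706637) and let-7b (chr15:85707325-85707346) lie on the plus strand within the span of the long noncoding RNA gene Lncppara. Those of let-7a (chr13:48538239-48538260), let-7f (chr13:48537889-48537910) and let-7d (chr13:48536078-48536099) lie together on the minus strand outside any other RefSeq gene.

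The brightest single miRNA was miR-1224, whose array name carries no arm mark. Its array position (mm9, chr16:20604534-20604545, plus strand) did not settle which of the 2 arms in RefSeq the probes were made for, so both are shown.
miR-1224-5p: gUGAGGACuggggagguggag
miR-1224-3p: cCCCACCUcuucucuccucag
Both arms (GRCm38.p6, chr16:20604452-20604472 and chr16:20604516-20604536, plus strand) lie within the span of the protein-coding gene Vwa5b2. Neither seed was shared with any miRNA of the array that had a matched sequence (0 miRNAs for each arm).

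Further sequences are those of miR-497, miR-195 and miR-26a, which are among the 20 brightest, and of the other matched miRNAs among the 10 brightest. The pair of miR-34a and miR-34b-5p is shown as the matched members of a family, with near-equal signals and miR-34b-5p on the germ cell list. MiR-34c and miR-449a, also on that list, had no matched sequence. MiR-202-3p is shown as the miRNA of the gonad list.
miR-497: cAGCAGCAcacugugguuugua
miR-195: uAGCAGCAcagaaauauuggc
miR-125b-5p: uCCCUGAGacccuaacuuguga
miR-29a: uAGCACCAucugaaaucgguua
miR-26a: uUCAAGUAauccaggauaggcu
miR-21: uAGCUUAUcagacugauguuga
miR-34a: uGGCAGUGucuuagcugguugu
miR-34b-5p: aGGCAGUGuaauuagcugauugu
miR-202-3p: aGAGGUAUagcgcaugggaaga
The capitals again mark the seed, which miR-497 and miR-195 share with each other and which miR-34a shares with miR-34b-5p. The seed of miR-202-3p equals that of let-7 except in its last base, so both share bases 2 to 7.

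A small number of miRNAs carried most of the signal of Sham Sertoli cells. The 567 total signals summed to 57939.5 units over the 327 miRNAs with a value above 0, and the detected miRNAs held 99.4% of that sum. MiR-1224 alone held 17.7% ± 0.97, the 5 brightest 38.0% ± 0.94, the 10 brightest 51.6% ± 0.80 and the 20 brightest 68.8% ± 0.55. The 50 brightest reached 89.2%, and the 53rd miRNA brought the sum past 90%. Total signals of detected miRNAs ran from 2.67 to 10234 units, with a median of 39.5 units, and the dimmest of them, miR-703, had 1 of 20 spots well above background. Of the 193, 15 were above 1000 units, 55 from 100 to 1000 units, 95 from 10 to 100 units and 28 below 10 units. No spot of a mouse miRNA was saturated (0 of 11340 spots). Signals of different miRNAs come from probes of different length and sequence, so the ranks order signals and cannot be read as an order of molecule numbers.

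**Figure D1:**
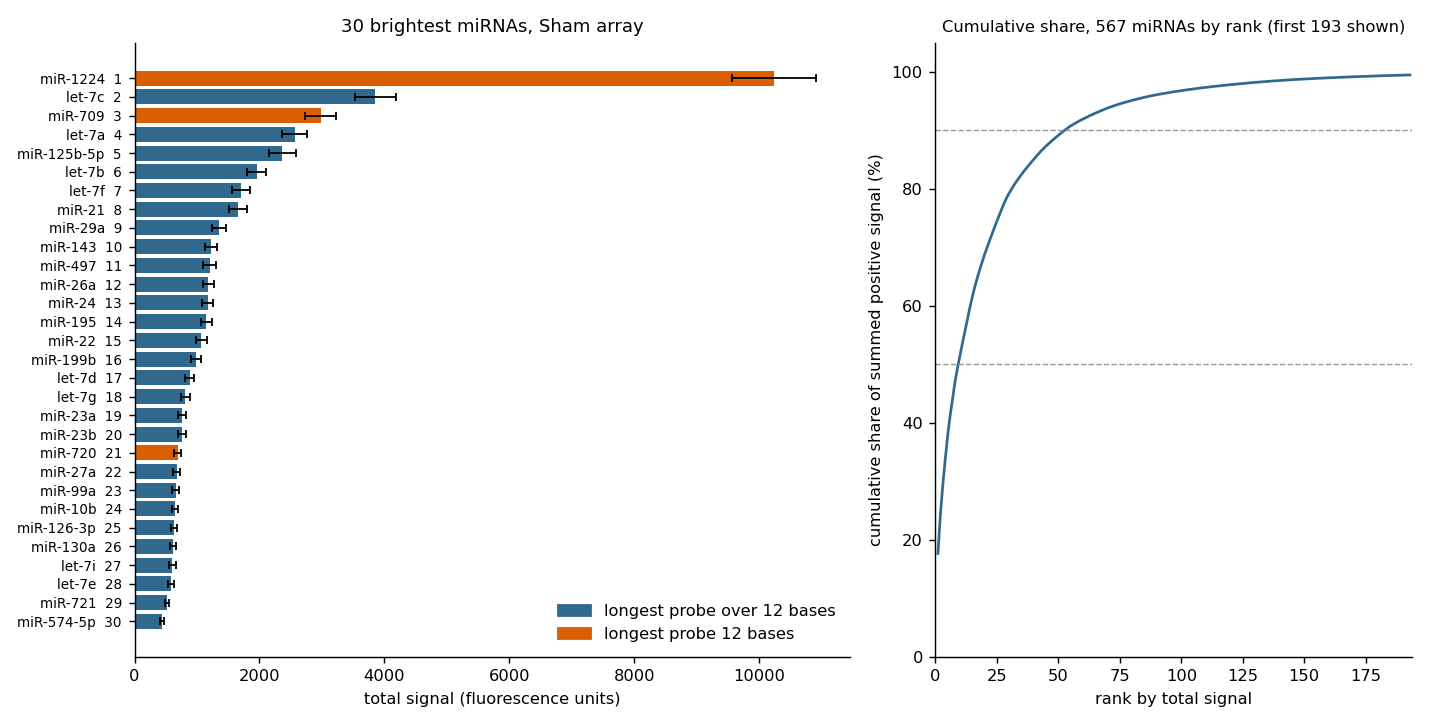
Left, total signal in fluorescence units of the 30 brightest miRNAs of the Sham array with the software error as bars; the number after each name is its rank, and orange marks the miRNAs whose longest probe covers 12 bases. Right, cumulative share of the summed positive signal in percent against rank for the 193 brightest of 567 miRNAs, with dashed lines at 50% and 90%, which the curve passes at ranks 10 and 53.

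MiR-1224 had a total signal of 10234 ± 670.5 units, and let-7c came next at 3856 ± 326 units. In rank order there followed miR-709 at 2981 ± 247 units, let-7a at 2564 ± 203 units and miR-125b-5p at 2366 ± 220.0 units. MiR-125b is the vertebrate relative of lin-4, which with let-7 was found as a timing gene of the nematode. Let-7b (1959 ± 152 units), let-7f (1706 ± 148 units), miR-21 (1660.2 ± 146 units), miR-29a (1350.2 ± 115 units) and miR-143 (1227 ± 95.05 units) completed the 10 brightest. MiR-21 is known for its rise in growing and injured tissues, miR-29 for targeting collagens and other matrix genes, and miR-143 for its place in smooth muscle and mesenchymal cells. The mature miR-21 lies within the span of Vmp1 (chr11:86584120-86584141, minus strand).

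Ranks 11 to 20 were close together, from 1200.2 down to 755 units. They were miR-497 (1200.2 ± 99.6 units), miR-26a (1182 ± 89.7 units), miR-24 (1168 ± 85.3 units), miR-195 (1151 ± 89.6 units), miR-22 (1071 ± 90.8 units), miR-199b (982 ± 76.8 units), let-7d (883 ± 75.2 units), let-7g (816 ± 69.4 units), miR-23a (758 ± 62.3 units) and miR-23b (755 ± 64.5 units). The matched copy of miR-26a lies within the span of Ctdsp2 and that of miR-24 within the span of Aopep, both protein-coding. Of the 19 neighbouring pairs among the 20 brightest, the signals of 2 pairs were apart by over 2 combined errors, miR-1224 from let-7c and let-7c from miR-709. From miR-709 downward no miRNA could be set above the next one by that measure, and among all 193 detected miRNAs no other neighbouring pair could (2 of 192 pairs in all).

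Each miRNA of the array is read by up to 4 probes, whose coordinates in the files differ by 1 base in length, and a longer probe gave a brighter signal for most miRNAs. Of 188 detected miRNAs with probes of different lengths, the longest probe was the brightest of the pair of longest and shortest in 176, by a median of 3.07-fold over the 177 with both above 0 (range 0.23 to 49.6). For miR-1224 the probes of 9, 10, 11 and 12 bases gave 232, 1179.8, 2959 and 5862 units. The 5 spots of its 12-base probe lay between 16149.5 and 20239.9 units with a median of 17659.6, so every spot was bright. Let-7c had 720.1 units on its 18-base probe and 3136 units on its 19-base probe, and the 10 spots of the latter ran from 3766 to 5981 units with a median of 4654. For miR-125b-5p the step was steeper, from 181 units on 16 bases to 2185 units on 17.

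The 3 detected miRNAs whose longest probe covers 12 bases were miR-1224, miR-709 and miR-720 (689 ± 62.3 units, rank 21). These were the 3 miRNAs with so short a probe set among the 560 with a probe position, and together they held 24.0% of the summed signal. Over the array the longest probe covered a median of 18 bases and at most 24. Across the detected miRNAs, signal and the length of the longest probe were hardly related (Spearman's rho = 0.07 over the 189 with a position), while signal and the number of probes were related the other way (rho = -0.29 over 193), and signal and the share of G and C in the mature sequence only weakly (rho = -0.17 over 144 miRNAs). Probe length itself fell with the share of G and C (rho = -0.71 over 144 miRNAs). All these miRNAs share 1 RNA pool, 1 hybridization and 1 scan, and the part of probe design in the rank of any miRNA was not tested.

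**Figure D2:**
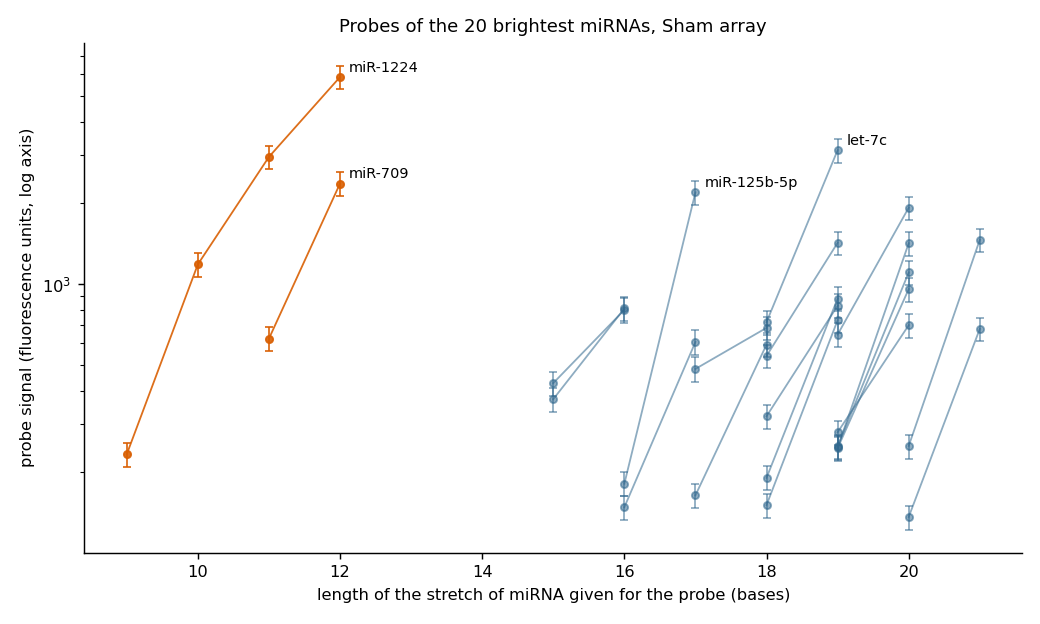
Signal of each probe in fluorescence units (log axis, bars are the software error) against the length in bases of the stretch of miRNA that the files give for it, for the 20 brightest miRNAs of the Sham array; lines join the probes of 1 miRNA. Orange marks miR-1224 and miR-709, whose probes cover 9 to 12 and 11 to 12 bases, and in each of the 20 miRNAs the signal rose with probe length.

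The detection flag did not follow the total signal alone. The dimmest detected miRNAs were miR-703 (2.67 ± 1.78 units), miR-696 (3.70 ± 1.82 units), miR-30c-1* (3.84 ± 1.79 units), miR-882 (4.07 ± 1.86 units) and let-7d* (5.04 ± 1.77 units). The brightest not detected were miR-341 (9.38 ± 2.57 units), miR-471 (7.59 ± 2.53 units), miR-429 (7.26 ± 2.52 units), miR-483* (7.12 ± 2.51 units) and miR-877* (7.10 ± 1.78 units), so both sides of the threshold overlapped between 2.67 and 9.38 units. Let-7d* was flagged as detected with 0 of its 20 spots well above background, and miR-341 as not detected with 3 of 20. Relative errors of detected miRNAs ran from 5.13% to 66.6% of the signal with a median of 9.68%, and those of the 20 brightest from 6.55% to 9.30%.

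Grouped by seed, 8 let-7 miRNAs summed to 12979.8 ± 456 units, or 22.4% ± 0.69 of the summed positive signal. This was above the 17.7% of miR-1224, an order that turned under other signal scales. MiR-1224 held 29.2% against 18.5% for let-7 with mean processed signals, 24.1% against 21.1% with the brightest probe, 15.3% against 10.1% after another background correction (normexp) and 28.3% against 10.4% in the table of normalized values that the authors deposited. After quantile normalization it held 9.03% against 19.9%. The deposited table lists let-7c at 8.15 units and miR-21 at 2.97 units. Let-7 is known as a family that rises as cells differentiate and that acts on growth genes such as Lin28 and Hmga2. All 8 matched members on the array were detected, against 34.0% of names over the array. Let-7c gave 29.7% of the family's signal, let-7a 19.8%, let-7b 15.1% and let-7f 13.1%, and the other members let-7d, let-7g, let-7i (607 ± 49.4 units) and let-7e (589 ± 47.6 units) from 6.80% down to 4.54%. The range from let-7c to let-7e was 6.55-fold. As the sequences above show, let-7a and let-7c differ by 1 base. How far the probes of this array tell such sequences apart was not tested, so both the split within the family and its sum are uncertain. MiR-98, which belongs to the family by name, had 45.7 ± 4.12 units, and with it the share was 22.5%.

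Among the 144 detected miRNAs with a matched sequence, which held 66.0% of the summed signal, there were 102 different seeds. Of these, 23 seeds were shared by 2 or more detected miRNAs, 65 miRNAs in all with 49.9% of the signal. There were 11 families with 2 or more detected members and at least 1% of the signal each, 46.8% together. The 49 detected miRNAs without a matched sequence held 33.5% and could not be placed, miR-709, miR-143 and miR-23b among them.

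**Figure D3:**
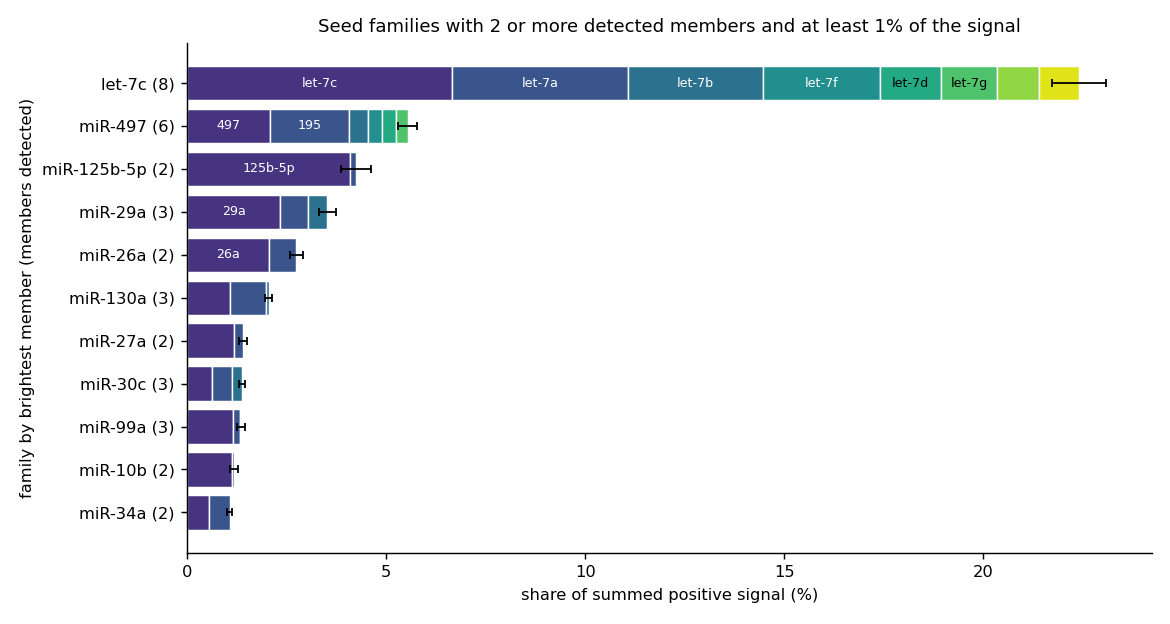
Share of the summed positive signal in percent held by each of the 11 seed families with 2 or more detected members and at least 1% of the signal, Sham array. Each block is 1 member, ordered by its signal, each family is named for its brightest member with the number of detected members in parentheses, and black bars are the error of the family's share; let-7 stands at 22.4% and the next family, that of miR-497, at 5.54%.

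The family of miR-15, miR-16, miR-195, miR-322 and miR-497, known for slowing the cell cycle through cyclins, came second with 3209 ± 138 units (5.54% ± 0.24). All 6 of its matched members were detected, against 34.0% of names over the array. MiR-497 and miR-195 together made up most of it, with 37.4% and 35.9% of the family's signal. The other members were dimmer, miR-15a at 271 ± 20.2 units, miR-322 at 216 ± 15.9 units, miR-16 at 192 ± 16.7 units and miR-15b at 179 ± 14.2 units. MiR-497 and miR-195 lie within 1 cluster on chromosome 11, and their signals differed by less than their combined error.

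In the remaining families 1 member usually carried most of the signal. MiR-125b-5p gave 96.5% of its family's 2452 ± 220.1 units, against 86.0 ± 7.70 units for miR-125a-5p. MiR-10b gave 94.95% of its family, with 645 ± 52.6 units against 34.3 ± 3.67 units for miR-10a. MiR-99a gave 83.8%, with 657 ± 59.0 units against 104 ± 8.91 units for miR-100 and 23.2 ± 3.07 units for miR-99b. Mature miR-10b and miR-10a differ by 1 base, as do miR-99a and miR-100, and their signals were 18.8-fold apart in the former family.

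The miR-29 family, with 3 detected members, held 2039 ± 122 units (3.52% ± 0.21), of which miR-29a gave 66.2%, miR-29c (411 ± 29.7 units) 20.2% and miR-29b (278 ± 26.5 units) 13.6%. MiR-26a and miR-26b summed to 1582 ± 94.4 units, 74.7% of it from miR-26a. The seed of miR-130a was shared by miR-721, with 617 ± 45.6 and 522 ± 26.8 units, and by miR-301a with 42.0 ± 4.49 units. MiR-27a (673 ± 56.0 units) stood above miR-27b (136 ± 11.9 units), which differs from it by 1 base. In the miR-30 family miR-30c had 359.9 ± 34.1 units, miR-30a 296 ± 19.99 units and miR-30e 136 ± 11.997 units, beside miR-30d (108 ± 8.24 units) and miR-30b (102 ± 9.84 units), which are members by name. MiR-34a and miR-34b-5p, members of a family known as targets of p53, had 319 ± 26.1 and 294 ± 22.0 units, a difference within 2 combined errors. MiR-34c (141 ± 12.6 units), a member by name, had no matched sequence and is not in this sum.

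The array carried both arms of some hairpins by name. Of 164 such pairs, both arms were detected in 13, 1 arm in 70 and neither in 81. Over the array 34.0% of names were detected, and whether the count of pairs departs from that rate was not tested. In 7 of the pairs the array places the arms on different chromosomes, and 1 of these, miR-199b and miR-199b*, had both detected. Star names were detected in 13 of 114 cases (11.4%) and other names in 180 of 453 (39.7%), and the detected star names held 0.84% of the summed signal. In each of the other 12 pairs the arms were apart by over 2 combined errors, and the brighter exceeded the dimmer by a median of 4.26-fold. Of the 10 of these whose brighter arm could be named, it was the 5p arm in 6 and the 3p arm in 4.

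Let-7d stood at 883 units and let-7d* at 5.04 ± 1.77 units, and since 0 of 20 spots of let-7d* were well above background no fold is given. MiR-126-3p (636 ± 47.3 units) exceeded miR-126-5p (13.2 ± 2.71 units) by 48.1-fold. MiR-29c exceeded miR-29c* (12.6 ± 2.65 units) by 32.6-fold and miR-30a exceeded miR-30a* (17.6 ± 2.81 units) by 16.8-fold. MiR-30e and miR-30e* (16.8 ± 2.87 units) were 8.07-fold apart. In each of these hairpins the dimmer arm was below 20 units.

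Ratios were smaller in the other hairpins. MiR-125a-5p stood at 86.0 units against 26.7 ± 2.31 units for miR-125a-3p. MiR-139-3p (75.8 ± 6.57 units) was brighter than miR-139-5p (20.3 ± 2.57 units), and miR-324-3p (60.2 ± 5.61 units) than miR-324-5p (12.6 ± 2.65 units). MiR-140 (60.2 ± 5.08 units) and miR-140* (30.4 ± 3.52 units) were 1.98-fold apart, and miR-470 (18.6 ± 2.99 units) and miR-470* (10.3 ± 2.60 units) 1.80-fold. MiR-340-5p had 16.9 ± 2.75 units and miR-340-3p 7.77 ± 2.08 units. The pair named miR-199b (982 units) and miR-199b* (296 ± 24.9 units) was set apart because the array lists its names on different chromosomes. The former is listed on chromosome 1, where it matched miR-199a-3p, and the latter on chromosome 2. Which hairpin gave the signal of miR-199b was not tested.

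The star name was the brighter one in a single hairpin with both arms detected, miR-712* (31.7 ± 2.80 units) over miR-712 (9.45 ± 1.86 units). In 2 more pairs, of which miR-135a is among those placed on different chromosomes, the star name alone was detected, miR-150* (36.6 ± 2.57 units) and miR-135a* (11.5 ± 1.90 units), while miR-150 stood at 3.93 ± 2.50 units and miR-135a at 1.51 ± 2.47 units. Both arms are read by different probes, so each ratio carries the difference between the probes. With detection set to 1 probe with every unflagged spot well above background, both arms were detected in 7 hairpins.

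**Figure D4:**
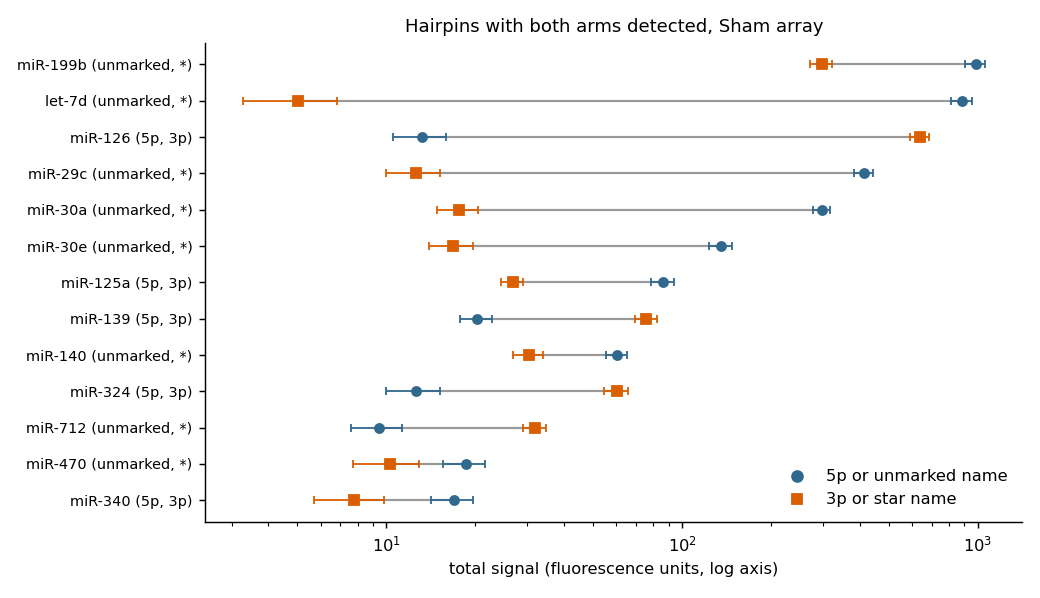
Total signal in fluorescence units (log axis) of both arms of the 13 pairs with both arms detected on the Sham array, ordered by summed signal, with the software error as bars. Circles are the 5p arm or the name without a mark and squares the 3p arm or the star name; the line of miR-126 spans 48.1-fold and that of miR-470 1.80-fold, and the dimmer point of let-7d rests on no spot well above background.

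MiRNAs known for other tissues, or for cell types and tissues that include the testis, were compared with the array next. They formed 14 lists with 113 array names, of which 34 were detected (30.1%, against 34.0% over the array). The miRNA of liver, miR-122, was not detected at -2.89 ± 2.46 units. None of the 4 names of the endocrine pancreas list (miR-375, miR-7a, miR-7b, miR-7a*) was detected, with values from -1.25 to 3.59 units. None of the 4 names of the sensory organ list (miR-96, miR-182, miR-183, miR-183*) was either, with values from -3.05 to 0.73 units. Pluripotent-cell miRNAs of the miR-290 and miR-302 groups were detected in 1 of 22 cases (4.55%, against 34.0% over the array), miR-290-5p at 12.6 ± 1.86 units. A count of this kind cannot show absence, and a miRNA not detected may be present below what 1 array can measure.

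Epithelial miRNAs were detected in 2 of 12 cases (16.7%, against 34.0% over the array). These were miR-200b at 9.69 ± 2.63 units and miR-200a at 5.94 ± 2.52 units, both near the threshold, and miR-141, miR-200c and miR-205 were below 0 units. The kidney and gut list had miR-192 at 9.53 ± 2.58 units and miR-194 at 7.68 ± 2.57 units, with miR-215 not detected. Under the strictest detection rule neither list had a detected member.

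Several lists were represented by bright members and not by the rest. In the brain list (2 of 10, against 34.0% over the array) miR-124, the most abundant miRNA of neurons, had 202 ± 15.2 units and miR-128 had 9.11 ± 2.59 units, while miR-9, miR-137, miR-138 and miR-153 were all below 0 units. In the striated muscle list (3 of 8, or 37.5%, near the 34.0% over the array) miR-1 had 248 ± 23.2 units, miR-133b 168 ± 15.1 units and miR-133a 83.6 ± 7.74 units. MiR-206, which lies next to miR-133b on chromosome 1, was at 0.55 ± 2.47 units, and miR-208a, miR-208b and miR-499 were below 0 units. In both lists some members were well above the threshold and others at background.

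The next lists are of cells that lie close to Sertoli cells in the testis. In the smooth muscle list, which also stands for peritubular cells, miR-143 reached 1227 units and miR-145, from the same cluster, 57.5 ± 5.00 units. The endothelial miR-126-3p had 636 units. In RNA of a pool of cells, fewer cells of a type and less RNA per cell cannot be told apart. In the blood list (4 of 8, against 34.0% over the array) the red-cell miRNA miR-451 had 102 ± 7.89 units, the myeloid miR-223 had 85.1 ± 7.76 units and miR-142-3p had 42.3 ± 4.03 units, while miR-144, the neighbour of miR-451, was at -0.13 ± 2.46 units. MiR-150 and miR-155 were not detected, at 3.93 and 4.35 ± 2.49 units. Together the smooth muscle list held 2.22% of the summed signal, the endothelial list 1.12% and the blood list 0.46%.

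The miRNAs of meiotic and later germ cells were detected in 3 of 7 cases (42.9%, against 34.0% over the array), miR-34b-5p at 294 units, miR-34c at 141 ± 12.6 units and miR-449a at 39.8 ± 4.14 units, while miR-449b and miR-449c were below 0 units. This list held 0.82% of the summed signal. The list of X-linked testis miRNAs was detected in 12 of 27 cases (44.4%, against 34.0% over the array), with signals from 8.42 to 51.1 units and a sum of 273 units, or 0.47%. Its brightest members were miR-465c-3p (51.1 ± 4.92 units), miR-741 (34.7 ± 3.84 units), miR-201 (27.7 ± 3.21 units) and miR-880 (27.1 ± 3.18 units). The brightest of the list not detected was miR-471 at 7.59 ± 2.53 units, above some detected miRNAs of the array. By position miR-471, miR-741 and miR-880 lie in 1 cluster, and miR-201 and miR-465c-3p in others. The study also measured several members of this list, miR-741, miR-201, miR-880 and miR-471 among them, by RT-PCR in purified Sertoli cells. MiR-202-3p, a miRNA of testis and ovary, had 103 ± 8.43 units at rank 67, and miR-202-5p was not detected at 0.51 ± 3.48 units. The part of other cells of the preparation in these signals was not tested.

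**Figure D5:**
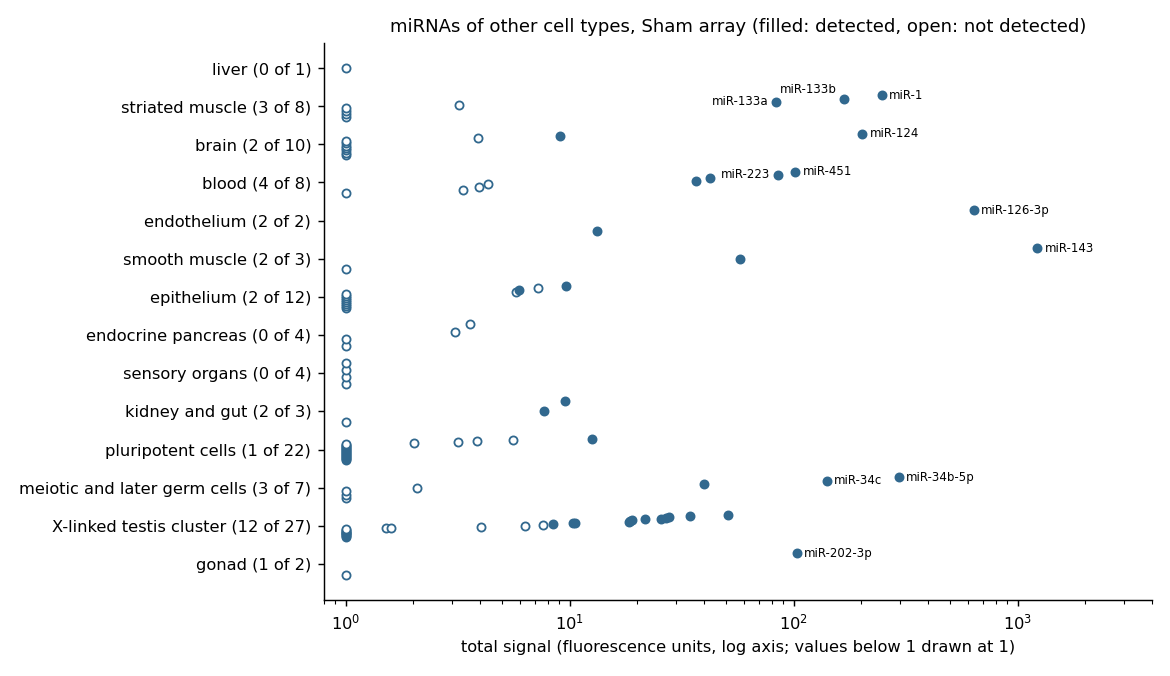
Total signal in fluorescence units (log axis, values below 1 drawn at 1) of every array name in the 14 lists of miRNAs known for tissues or cell types, the testis included, Sham array. The numbers in parentheses give how many of how many names were detected. Filled points are detected and open points not detected, and miR-143, miR-126-3p, miR-34b-5p, miR-1 and miR-124 stand at the right of their lists.

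Each miRNA was counted at the 1 position (mm9) that the array gives for it. By these positions chromosome 16, with miR-1224, miR-125b-5p and miR-99a, carried 23.6% of the summed signal. On it 8 of 18 miRNAs were detected (44.4%, against 34.0% over the array). Chromosomes 13 and 15, which by the array's positions hold 5 of the let-7 miRNAs, followed at 12.6% and 10.6%. The X chromosome had 24 of 81 miRNAs detected (29.6%, near the 34.0% over the array) and 1.51% of the signal. Of 52 clusters of hairpin names within 10000 bases of each other on 1 strand, 44 had a detected miRNA and 6 had every miRNA detected. A star name with a copy number counted as a further hairpin name, so these counts are too high. They include miR-30c with miR-30c-2* and miR-218 with miR-218-2*, each pair within the length of 1 hairpin, the former among the 6. MiR-23a and miR-27a of 1 cluster on chromosome 8 had 758 and 673 units. In the related cluster on chromosome 13 miR-24 and miR-23b had 1168 and 755 units and miR-27b 136 units. Some of these miRNAs have more than 1 hairpin. The array lists let-7c on chromosome 15 but let-7c-1* on chromosome 16, and miR-24 on chromosome 13 but miR-24-2* on chromosome 8. Its place for let-7c-2* (chr13:48633557-48633578) lies beside that of let-7a (chr13:48633608-48633627), so it was not taken as a hairpin of let-7c. The signal of such a miRNA cannot be divided between its hairpins, so shares by position are not the output of a chromosome or cluster.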

How the data were processed

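RNA of purified Sertoli cells had been hybridized by the authors to Agilent miRNA arrays of design 019119, by the file headers (the methods name a whole-genome array), and read with Feature Extraction 9.5.3.1. The authors deposited the scanner intensities, in linear fluorescence units after background subtraction and without normalization between arrays. The labels name the dye cy5, while the files hold 1 green channel. The table the authors deposited with quantile-normalized intensities (MATLAB by the methods) was used as an alternative.

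From the Sham file (12493 spots), total signals, errors and detection flags of 567 mouse miRNAs were taken as deposited. Shares are of the sum of values above 0, with errors propagated from the software's errors as independent. Array names were matched to RefSeq mature sequences (GRCm38.p6) by number, chromosome, strand and the local shift between the 3′ ends in the files (mm9) and in RefSeq that neighbouring miRNAs or both arms of a hairpin share, otherwise by name. In this way 429 miRNAs had a sequence, 27 of them by name alone, as did 144 of the detected. Coordinates were not converted between builds. Families share bases 2 to 8. A hairpin's arms were paired by name, and clusters join hairpin names under 10000 bases apart. Named are the 20 brightest, the 5 dimmest detected and 5 brightest not detected, members of families with at least 1% of the signal, the 10 brightest hairpins with both arms detected with those whose star arm was brighter, and list members. Others were chosen after their values were seen.

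The members and lists were chosen with earlier results of these data known. The alternatives were other detection rules, the sum over detected miRNAs, mean processed signals, the brightest probe, normexp (limma 3.58.1, R 4.3.3, offset 50), quantile normalization over the 4 arrays, the deposited table, a seed of bases 2 to 7 and a family's brightest member. Of the alternatives, 3 were added after seeing the data. Spots flagged as nonuniform or as outliers (306 of 11340) were left out of spot values. The matching and the error of a share were tested on simulated data. Python 3.11.15, pandas 2.3.3 and SciPy 1.17.1 were used. The other 3 arrays entered only the quantile normalization.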

Additional observations from a re-analysis of the deposited data

Results flagged for a closer look

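The array also carries 10 viral miRNAs, which none of the comparisons used. On the Sham array 1 of the 10, mghv-miR-M1-2, was marked detected at 18.9 ± 2.01 units, while the other 9 lay between -4.04 and 1.30 units. A total of 59 of the 193 detected mouse miRNAs were dimmer than it. The source of this signal was not tested.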

How the results depend on the processing

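The number of detected miRNAs was 219 with at least 1 spot well above background, 191 with a signal above 3 times its error and 147 with every unflagged spot of 1 probe well above background, against 193 by the flag. It was 327 with any signal above 0. The share of the 10 brightest (51.6%) was 57.2% with mean processed signals summed over probes, 56.9% with the brightest probe, 30.3% after normexp, 39.1% after quantile normalization over the 4 arrays, 59.7% in the deposited table and 43.3% without the 3 miRNAs of 12-base probes. Among families with a matched sequence let-7 stayed the brightest under these alternatives, at 18.5%, 21.1%, 10.1%, 19.9%, 10.4% and 29.5% in the same order, and at 6.66% when each family was counted by its brightest member. MiR-1224, which has no settled seed, held more than let-7 in the first 3 and in the deposited table (29.2%, 24.1%, 15.3% and 28.3%) and, at 17.7%, more than let-7 by its brightest member. With the sum over detected miRNAs both shares moved by less than their error, as did that of let-7 with a seed of bases 2 to 7 (22.6%, miR-202-3p included) or with miR-98 added. Of the 20 brightest, 19 stayed among the 20 brightest under each of the first 3 of these signals. By the deposited values 12 of them did, and miR-1224 was first under all of these. Quantile normalization of the total signals keeps the order of the miRNAs within an array by construction (20 of 20 kept). It therefore cannot test the ranks or the first place of miR-1224. Both arms were detected in 7 hairpins in place of 13 when every unflagged spot of 1 probe had to be well above background. Of the 42 list counts under other detection rules, 12 moved by over 1.5 times or from or to 0, in the epithelium, brain, endothelium, endocrine pancreas, sensory organ, kidney and gut and pluripotent lists. Normexp with its offset adds a constant to every probe, by construction. No paired analysis was possible because the result comes from no test. The group has 1 array, and the software's errors cover no spread between pools.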

Other observations

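The miRNA cluster of the Dlk1-Dio3 region on chromosome 12, an imprinted locus known for its activity in the embryo and brain, had few detected names in Sham Sertoli cells. Of the 50 names within the miR-494 cluster 2 were detected, miR-494 at 223 ± 17.7 units and miR-134 at 13.7 ± 1.90 units. In a neighbouring cluster 1 of 2 names was detected, miR-370 at 80.8 ± 6.42 units. In another 2 of 20 names were, miR-673-5p at 39.5 ± 2.73 units and miR-770-3p at 6.83 ± 1.81 units. Chromosome 12 as a whole had 10 of 82 miRNAs detected (12.2%, against 34.0% over the array). The X-linked cluster of miR-322 and miR-503 had 1 of 11 names detected, miR-322 at 216 ± 15.9 units, while miR-503 stood at 1.74 ± 2.48 units. In the cluster of miR-17 to miR-92a on chromosome 14, known for promoting proliferation, 5 of 10 names were detected, led by miR-19b (147 ± 13.4 units) and miR-92a (116 ± 10.9 units), and miR-17 itself was at -1.66 ± 2.46 units. Its relative on chromosome 5 had 3 of 5 names detected, miR-106b at 71.2 ± 6.25 units, miR-25 at 36.6 ± 4.18 units and miR-93 at 19.7 ± 3.16 units. These clusters include star names. Over the array 11.4% of star names and 39.7% of other names were detected (34.0% of all), and whether any cluster departs from these rates was not tested.

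The table that the authors deposited differed from the scanner file for some of the brightest miRNAs, a comparison chosen after seeing the data. Over the 193 detected miRNAs the deposited value was a median of 1.16 times the summed processed signal. For 13 miRNAs it lay over 10-fold below that ratio, and for 0 over 10-fold above. Among them were let-7c with a deposited value of 8.15 units against a processed sum of 5828 units, miR-21 with 2.97 against 2509 units, miR-24 with 21.3 against 1766 units and miR-22 with 24.8 against 1619 units, all 4 of the 20 brightest miRNAs. By the deposited values let-7c ranked 209 and miR-21 ranked 261 of 567. Other bright members of the 13 were miR-30c (45.5 against 544 units) and miR-1 (11.01 against 375 units). The cause was not tested.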
